A study of Mus musculus with 4 samples.

Results

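Ribosome biogenesis and nucleolar genes were examined in mouse muscle after local delivery of an inhibitor of myostatin. A fixed list of 37 genes was used, and 36 of them were measured, out of 15103 genes tested on the array. A gene entered when at least 1 probe set (a group of short probes that reads 1 transcript) was assigned to its symbol alone, and the brightest such probe set by the mean of the 4 arrays stood for the gene. Mrto4, a large subunit maturation factor, was reached only by a probe set shared with other symbols and was not analysed here. All 36 brightest probe sets passed the filter on dim signals. The genes were ordered by role into 6 of RNA polymerase I transcription, 2 transcriptional regulators, 3 box C/D and 4 box H/ACA proteins, 4 nucleolar organisers and chaperones, 9 factors of small subunit processing and 8 measured factors of large subunit processing.

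The muscle was the tibialis cranialis, a shin muscle that lifts the foot, and came from male C57Bl/6 mice, numbered to 8 in each group and fed a high fat diet from 8 weeks of age. After 4 weeks of diet 1 leg received AAV8 ProMyo and the other leg received saline, and both muscles were taken 10 weeks later, at 22 weeks of age. AAV8 is an adeno-associated virus with good uptake into muscle, and ProMyo stands for the myostatin propeptide, which keeps this brake on muscle growth in an inactive complex. RNA of 4 animals was mixed for each array, so the ProMyo group and the saline group each held 2 arrays, of animals 1-4 and animals 5-8. The labels number animals within each group, and these numbers were read as the same mice in both legs, which the labels do not state; differences within a pool of animals rest on this reading. Every group was on the high fat diet, no group received an empty vector, and the promoter that drives ProMyo is not given in the sources used here. A difference between the legs therefore joins the vector, the injection of virus and the inhibition of myostatin, which cannot be told apart.

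Ribosomes are built in the nucleolus. RNA polymerase I transcribes a long precursor RNA, and small nucleolar ribonucleoproteins modify it: those of the box C/D kind add methyl groups to ribose, and those of the box H/ACA kind turn uridine into pseudouridine. A large set of processing factors then cuts and folds the precursor into the RNAs of the small and the large subunit. In skeletal muscle a growing fibre raises its ribosome number to make more protein, and MYC is a well known activator of the genes of this pathway.

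MYC binds the E-box CACGTG, so promoters of the members were searched for it in the 300 bases around each start site (250 before, 50 after) given by RefSeq for build GRCm38.p6. A window was matched for 31 of 37 members by symbol. The E-box was present in 7 of these 31 genes (22.6%) and in 8.09% of all 27025 genes with a window; it reads the same on both strands. The letters CCGGAAG, a core bound by ETS factors, were found on either strand in 9 members (29.0%) against 9.93% of all genes. The letters GCATGCGC of NRF1 and AAGATGGC of YY1 were each found in 1 member (3.23%), against 3.05% and 3.19% of all genes. Promoters are shown of the members with the highest differences (Nop58, Gar1) and the lowest (Imp4), and that of Rrn3, the only member with 2 E-boxes, both before the start site. They are the 250 bases before the start, on the gene's strand, with complete E-boxes and ETS cores in capitals.
Nop58: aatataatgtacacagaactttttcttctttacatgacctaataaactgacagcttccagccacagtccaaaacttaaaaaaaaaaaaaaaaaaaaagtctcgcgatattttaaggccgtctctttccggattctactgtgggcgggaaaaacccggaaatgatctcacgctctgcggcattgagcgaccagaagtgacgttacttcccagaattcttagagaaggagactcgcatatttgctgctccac
Gar1: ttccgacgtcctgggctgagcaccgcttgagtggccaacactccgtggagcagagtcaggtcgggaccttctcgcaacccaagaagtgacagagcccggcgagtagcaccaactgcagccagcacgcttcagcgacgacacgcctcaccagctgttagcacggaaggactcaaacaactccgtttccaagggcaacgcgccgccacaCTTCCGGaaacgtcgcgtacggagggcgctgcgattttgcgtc
Imp4: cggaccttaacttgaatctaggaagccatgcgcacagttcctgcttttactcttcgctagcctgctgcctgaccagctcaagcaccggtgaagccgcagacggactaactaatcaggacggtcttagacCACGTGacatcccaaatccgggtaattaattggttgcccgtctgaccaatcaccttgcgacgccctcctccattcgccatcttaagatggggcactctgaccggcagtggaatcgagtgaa
Rrn3: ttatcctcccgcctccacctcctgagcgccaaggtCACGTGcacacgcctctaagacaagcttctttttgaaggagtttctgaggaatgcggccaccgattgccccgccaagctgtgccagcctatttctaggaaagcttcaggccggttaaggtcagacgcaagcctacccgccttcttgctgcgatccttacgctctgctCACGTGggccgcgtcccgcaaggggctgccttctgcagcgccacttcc
These windows lie at chr1:59684756-59685005 (plus strand) for Nop58, chr3:129831397-129831646 (minus strand) for Gar1, chr1:34439579-34439828 (plus strand) for Imp4 and chr16:13780449-13780698 (plus strand) for Rrn3. The E-box of Imp4 begins 121 bases before the start, and those of Rrn3 begin 215 and 48 bases before it. Nop58 held no E-box in its 300 bases, and the letters CCGGAAG were absent from the 250 bases shown, on either strand. The shorter run CCGGAA does occur there, on both strands. Of the 7 members with an E-box, Rrn3 and Pes1 read higher after ProMyo in each pool, against 29% of all genes tested. Imp4 and Utp20 read lower in each pool, against 24% of all genes. Mybbp1a, Wdr43 and Nop2 had no shared direction, against 47% of all genes.

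Values are log2 expression as deposited, and a difference is ProMyo minus saline on that scale. The arrays had medians of 1.06 to 1.11. The saline array of animals 5-8 stood apart: the mean of its hybridization controls, spiked into every sample, was 11.1, and that of the other arrays 10.1 to 10.2, and its upper quartile was 2.97 against 3.15 to 3.20. Bacterial controls without target reached 0.68 and 0.57 on the ProMyo arrays and 0.76 and 0.99 on the saline arrays. A value was counted as within the background controls at or below the highest of these, 0.99, which came from the saline array of animals 5-8. The muscle label was borne out by its markers: Acta1, Ckm, Myh4 and 7 other genes of skeletal muscle fibres read at least 9.3 on every array. Differences were tested with limma over all 15103 genes, with Benjamini-Hochberg adjustment. No gene passed an adjusted p of 0.05 (0 of 15103, 0%; 874 had an unadjusted p under 0.05), so no member did either. The number of arrays limits the precision: the median standard error of a member was 0.19 log2 units. An exact permutation test of 2 arrays against 2 cannot go below a two-sided p of 0.333.

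More members read higher than lower in ProMyo muscle, by small amounts. The difference was above 0 in 28 of 36 members, against 52.2% of all genes tested, and its median was 0.13 against 0.013. Both pools of animals showed a higher value in ProMyo muscle for 15 members (41.7%), against 29% of all genes, and a lower value in both pools for 4 members (11.1%), against 24%. The other 17 members had no shared direction (47.2%, against 47%). The difference was larger in animals 5-8 than in animals 1-4 for 23 members, against 54.5% of all genes. After quantile normalization the same counts were 12 higher and 6 lower, against 25.1% and 29.7% of all genes, 22 members were above 0 against 46.7%, and the median difference was 0.073, with -0.019 over all genes. The median over members was 0.051 within animals 1-4 and 0.17 within animals 5-8, against 0 and 0.04 over all genes. Only Nop58 was at least 1.5-fold higher in both pools (1 of 36, 2.78%, against 1.03% of all genes), and no member was at least 1.5-fold lower in both (0.563% of all genes). Unadjusted p-values under 0.05 (limma) went to Nop58 and Gar1 among the higher genes and to Imp4 among the lower ones, against 3.07% and 2.72% of all genes in these directions. With the pool as a replicate block the unadjusted p of Imp4 was 0.0548, past that limit, while those of Nop58 and Gar1 were 0.0033 and 0.0416.

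**Figure D1:**
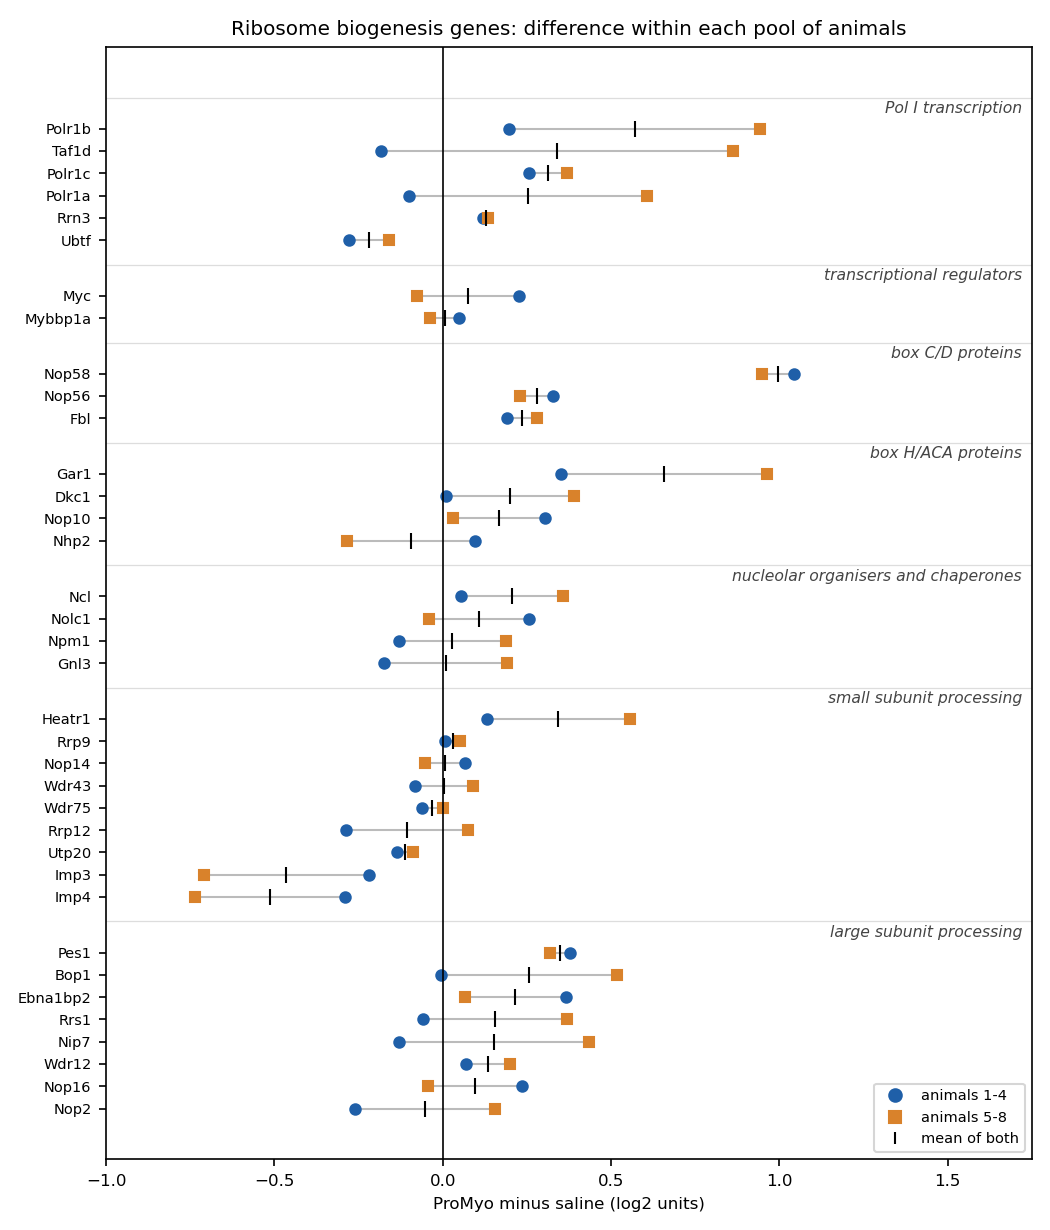
ProMyo minus saline (log2 units, horizontal axis) for the 36 measured members, grouped by role. Circles are animals 1-4, squares animals 5-8 and ticks the mean of both; Nop58 lies near 1.00 in both pools, Imp3 and Imp4 lie left of 0 in both, and most other members lie within 0.40 of 0 on average.

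Box C/D proteins were the role in which every measured member read higher in both pools, 3 of 3, against 29% of all genes. Their median was 0.28. Nop58, a core protein of these particles, had log2 values of 3.19 and 3.34 on the ProMyo arrays of animals 1-4 and 5-8, and of 2.15 and 2.39 on the saline arrays. Both ProMyo arrays stood above both saline arrays by more than the spread within either group. The difference was 1.00 ± 0.18 (SE, n = 2 arrays per group), or 1.99-fold, with 1.04 within animals 1-4 and 0.95 within animals 5-8. It ranked 63 among differences ordered from the highest, 78 by absolute size and 13 by p, of 15103 genes, and did not pass the threshold (limma, unadjusted p = 0.0022, adjusted p = 0.822). Nop58 was read by a single probe set. Its partner Nop56, a related core protein of the same particles, read 5.88 and 5.94 after ProMyo, against 5.56 and 5.71 after saline. These groups did not overlap either, and the difference was 0.28 ± 0.16 (limma, adjusted p = 0.837). A dimmer Nop56 probe set read -0.17 within animals 1-4 and 0.30 within animals 5-8. Fbl, fibrillarin, the methyltransferase of the particles, read 5.30 and 5.05 after ProMyo, against 5.11 and 4.77 after saline. Its groups overlapped, because animals 1-4 read higher than animals 5-8 in both legs, and the difference was 0.23 ± 0.20 (limma, adjusted p = 0.873). The other Fbl probe set read -0.12 within animals 1-4 and 1.01 within animals 5-8, where the saline array was low at 2.51.

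Box H/ACA proteins read higher in each pool in 3 of 4 members, against 29% of all genes. In all 3 the ProMyo arrays stood above the saline arrays, against 17.8% of all genes. Gar1, a core protein that joins the mature particle, had log2 values of 4.45 and 4.78 after ProMyo, against 4.10 and 3.81 after saline. The difference was 0.66 ± 0.20, or 1.58-fold, and did not pass the threshold (limma, unadjusted p = 0.0222, adjusted p = 0.822). It was 0.35 within animals 1-4 and 0.96 within animals 5-8, and the saline array of animals 5-8 held the lowest of the values. Dkc1, dyskerin, the pseudouridine synthase of the particle, read 7.40 and 7.56 against 7.38 and 7.17. Nearly all of its difference of 0.20 ± 0.17 (limma, adjusted p = 0.876) came from animals 5-8, with 0.011 within animals 1-4. The brightest of the remaining Dkc1 probe sets read 0.20 and the dimmest -0.47, so that the mean of all was -0.025. Nop10, the smallest core protein, read 8.37 and 8.13 against 8.07 and 8.10, and here the difference lay in animals 1-4 (0.30 against 0.031 in animals 5-8). Its mean difference was 0.17 ± 0.17 (limma, adjusted p = 0.893), and the dimmer Nop10 probe set read 0.26. Nhp2, the fourth core protein, had no shared direction, with 0.10 within animals 1-4 and -0.29 within animals 5-8.

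**Figure D2:**
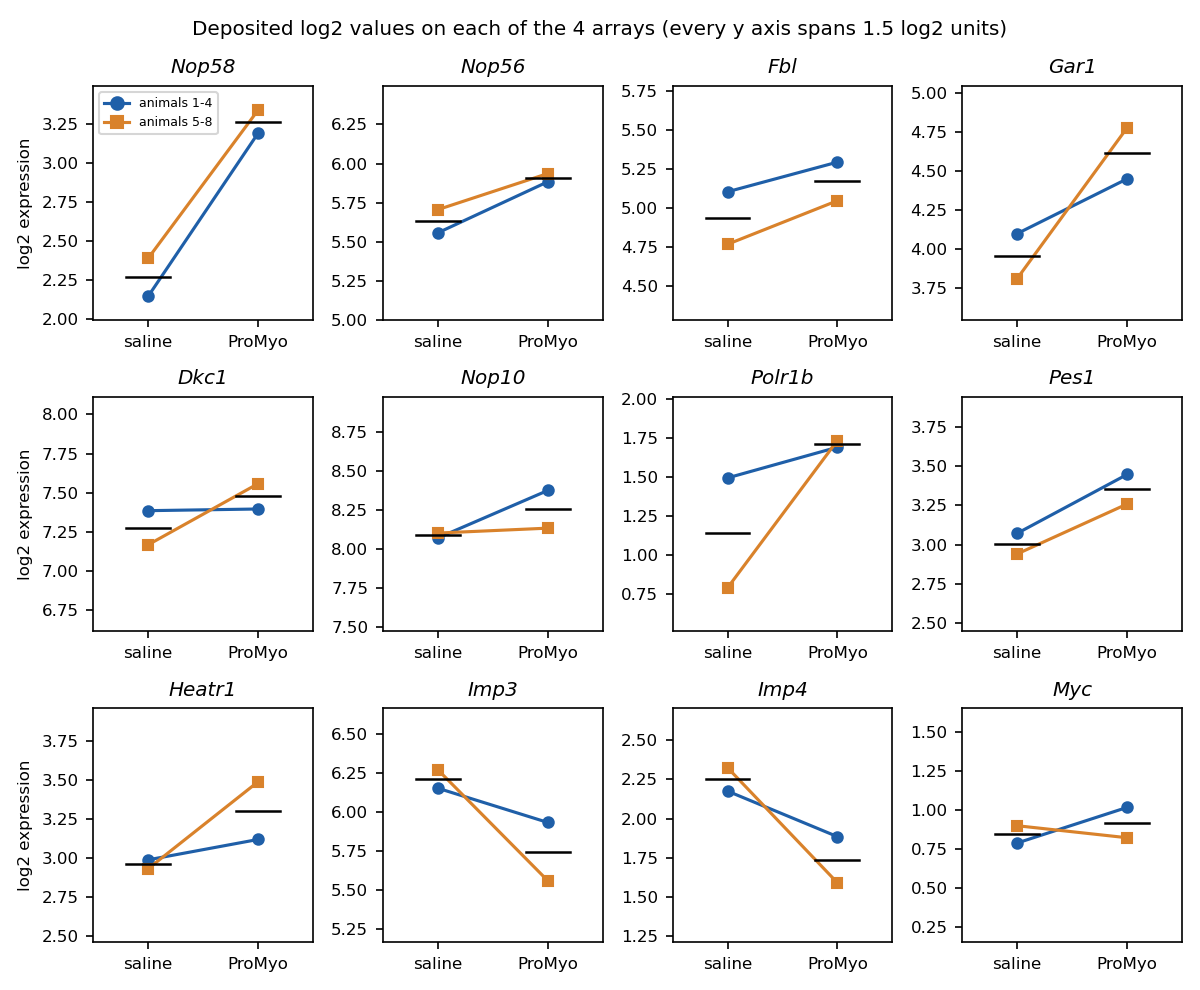
Deposited log2 values (vertical axes, each 1.5 log2 units high) of 12 members in saline and ProMyo muscle; lines join the legs of animals 1-4 (circles) and animals 5-8 (squares), and black bars are group means. Nop58 climbs by 1.04 and 0.95 in the pools, Imp3 and Imp4 fall in both, and Myc stays between 0.79 and 1.02.

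RNA polymerase I genes read higher in both pools for 3 of 6 members and lower in both for 1, against 29% and 24% of all genes. Their median was 0.28, with 0.0093 within animals 1-4 and 0.49 within animals 5-8. Polr1b, the second largest subunit, had log2 values of 1.69 and 1.73 in ProMyo muscle, and of 1.49 and 0.79 in saline muscle. The low value of the saline array of animals 5-8, within the background controls, made most of the difference of 0.57 ± 0.27 (limma, adjusted p = 0.825), and without that array the difference was 0.22. Polr1c, a subunit shared with RNA polymerase III, read 3.64 and 3.19 against 3.38 and 2.82. Its groups overlapped, the difference was 0.31 ± 0.27 (limma, adjusted p = 0.876), and the dimmer Polr1c probe set read -0.23. Taf1d, part of the selectivity factor that places the polymerase on its promoter, read 2.44 and 3.23 against 2.63 and 2.37. It went in opposite directions in the pools, -0.18 and 0.86, and its mean of 0.34 ± 0.30 did not pass the threshold (limma, adjusted p = 0.876). Polr1a, the largest subunit, likewise read -0.10 and 0.61. Rrn3, the initiation factor TIF-IA, was among the steadiest members, with 0.12 within animals 1-4, 0.14 within animals 5-8 and a standard deviation of at most 0.018 within either group. Ubtf, the upstream binding factor, was the 1 member of this role lower in both pools, with -0.28 and -0.16.

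The transcriptional regulators had no shared direction. Myc read 1.02 and 0.82 after ProMyo, against 0.79 and 0.90 after saline. By the highest control of any array 3 of 4 values lay within background, and by each array's own highest control 1 of 4, that of saline muscle of animals 5-8. Myc was thus close to background on every array (difference 0.075 ± 0.17; limma, adjusted p = 0.961). Mybbp1a, a nucleolar protein that represses ribosomal RNA transcription, was well above background at 5.90 and 5.76 against 5.85 and 5.79. The difference of 0.0061 ± 0.16 (limma, adjusted p = 1) turned to -0.041 after quantile normalization, and the dimmer Mybbp1a probe set read 0.40.

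Nucleolar organisers and chaperones stayed close to 0, with a median of 0.068. Ncl, nucleolin, a major RNA-binding protein of the nucleolus, was the 1 of 4 that read higher in both pools (29% of all genes did so). It read 6.00 and 6.12 against 5.95 and 5.76. Its difference was 0.21 ± 0.17 (limma, adjusted p = 0.867), with 0.053 within animals 1-4. The 5 probe sets of Ncl were all above background and disagreed: the brightest read 0.21, another read 0.39, and the other 3 read -0.11, -0.42 and -0.16. Npm1, nucleophosmin, read 7.31 and 7.60 against 7.44 and 7.42. Its difference of 0.029 ± 0.18 (limma, adjusted p = 0.988) was -0.026 after quantile normalization, while the other Npm1 probe set read 0.21. Nolc1, a chaperone of small nucleolar particles, read 5.87 and 5.50 against 5.61 and 5.54, with a difference of 0.11 ± 0.19 (limma, adjusted p = 0.949), and its dimmer probe sets read 0.18 and 0.45. Gnl3, nucleostemin, had -0.17 and 0.19 in the pools.

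Small subunit processing was the role with the lowest median, -0.031, and held both members for which the ProMyo arrays stood below the saline arrays (2 of 36 members, 5.56%, against 15.7% of all genes). These were Imp3 and Imp4, which act together in the complex that the U3 particle needs to fold and cut the precursor. Imp4 had log2 values of 1.88 and 1.59 after ProMyo, against 2.18 and 2.33 after saline. The difference was -0.51 ± 0.18 (limma, unadjusted p = 0.0367, adjusted p = 0.822), so that saline muscle read 1.43-fold above ProMyo muscle. The next Imp4 probe set read -0.15 and -0.82 in the pools, with a mean of -0.49, close to the -0.29 and -0.74 of the brightest. Imp3 read 5.93 and 5.56 against 6.15 and 6.27, a difference of -0.46 ± 0.19 (limma, adjusted p = 0.822). In both genes the saline array of animals 5-8 was the highest of the 4 and the ProMyo array of the same animals the lowest. Mphosph10, the third protein of this complex, looked up after these values were seen, read -0.17 and 0.30 in the pools. Heatr1, a large protein of the small subunit processome that also supports polymerase I transcription, went the other way, at 3.12 and 3.49 against 2.99 and 2.93. Its difference of 0.34 ± 0.19 (limma, adjusted p = 0.83) was not shared by the next probe set, which read -0.34 and -0.48. The other 6 members (Rrp9, Rrp12, Nop14, Utp20, Wdr43 and Wdr75) had differences between -0.11 and 0.029. Of these, Rrp12 spread most between pools, from 3.29 to 2.66 after ProMyo and from 3.58 to 2.59 after saline.

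Large subunit processing read higher in both pools for 3 of 8 members and lower in both for 0, against 29% and 24% of all genes. The median was 0.15. Pes1, Bop1 and Wdr12 form the PeBoW complex, which large subunit maturation requires. Pes1 had log2 values of 3.45 and 3.26 after ProMyo, against 3.07 and 2.94 after saline, without overlap and with like differences of 0.38 and 0.32 in the pools. Its mean difference was 0.35 ± 0.17 (limma, unadjusted p = 0.0915, adjusted p = 0.825). Bop1 read 3.78 and 3.92 against 3.79 and 3.41, so that its 0.26 ± 0.20 (limma, adjusted p = 0.865) came from animals 5-8. Wdr12 read 0.069 and 0.20 in the pools, and its next probe set 0.25 and -0.28. Ebna1bp2, an assembly factor of the large subunit, read 4.27 and 4.06 against 3.91 and 3.99, without overlap, a difference of 0.22 ± 0.17 (limma, adjusted p = 0.865) that lay mostly in animals 1-4. The remaining 4 members had no shared direction: Nop2, an RNA methyltransferase, Nop16, Nip7 and Rrs1, with differences between -0.052 and 0.16.

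The choice of probe set mattered for single members and for the set. With all probe sets of a gene averaged, the median over members was 0.072 in place of 0.13, and 25 members were above 0 in place of 28. Over all genes so averaged the median was 0.007, and 51.4% were above 0. A next brightest probe set above the background controls on all arrays was present for 18 members, and its difference had the same sign as the brightest in 12 and the opposite sign in 6 (Polr1c, Ncl, Wdr75, Heatr1, Wdr12 and Rrs1). The median of these 18 was 0.17. Of all 25 further probe sets of members above background, 9 read higher in both pools and 7 lower. At the brightest probe set these counts were 15 and 4 of 36, against 29% and 24% of all genes. Rrs1, a factor of the 5S particle, read 0.16 at the brightest and -0.30 at the next probe set. Taf1d read higher at the next probe set, with 0.14 within animals 1-4 and 1.39 within animals 5-8. Nop58, Gar1, Imp3 and Polr1b, with the largest differences beside Imp4, were read by 1 probe set each and have no such check.

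**Figure D3:**
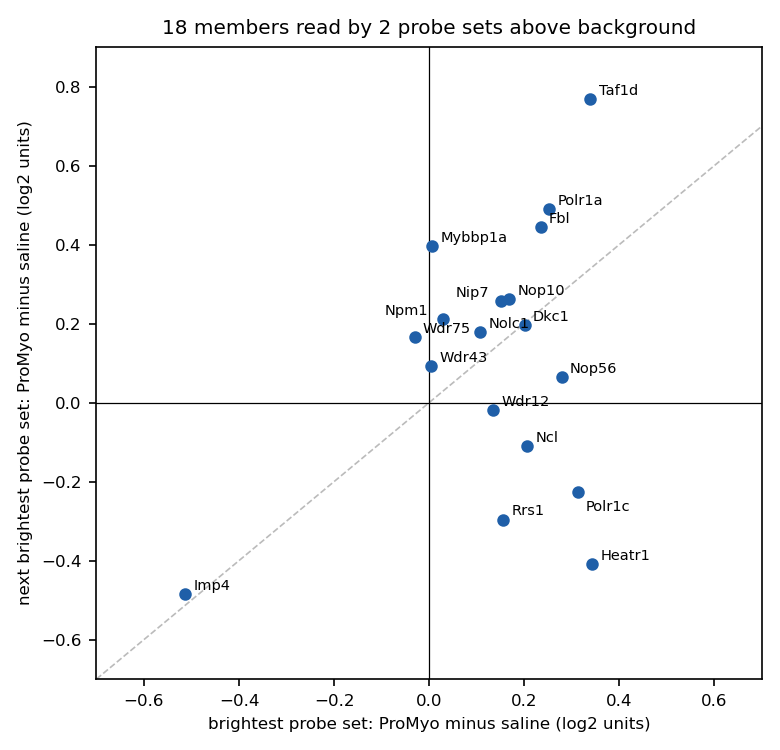
Difference between ProMyo and saline muscle (log2 units) at the brightest probe set (horizontal axis) against the next brightest (vertical axis) for the 18 members with both above background; the dashed line marks equal values. Imp4 reads low at both probe sets, and Heatr1, Polr1c, Ncl and Rrs1 lie right of 0 but below it.

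The saline array of animals 5-8 weighed on these values. It was the lowest of the 4 arrays for 17 of 36 members (47.2%), against 35.5% of all genes, and members deviated on it from their own mean by a median of -0.14, against -0.051 over all genes. On the other arrays the members' median deviations were 0.095 (ProMyo 1-4), 0.0091 (ProMyo 5-8) and 0.019 (saline 1-4). With all arrays, both ProMyo values stood above both saline values for 11 members (30.6%, against 17.8% of all genes). Against the saline array of animals 1-4 alone, 13 members had both ProMyo values above it and 8 both below, against 29.5% and 36.9% of all genes. The median difference was then 0.05, with -0.024 over all genes, and 22 of 36 members were above 0, against 46.5% of genes. Against the saline array of animals 5-8 alone, 22 members had both ProMyo values above it, against 42.7% of all genes, and the median difference was 0.18, with 0.061 over all genes. The part of the brighter controls of this array in the members' values was not tested.

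**Figure D4:**
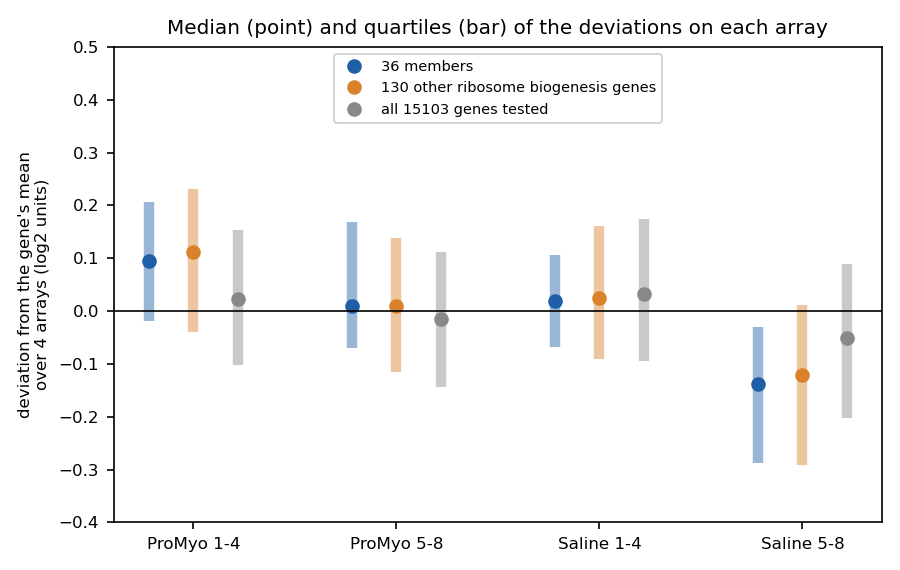
Deviation of each array from a gene's mean over the 4 arrays (log2 units); points are medians and bars quartiles over the 36 members, the 130 other ribosome biogenesis genes and all 15103 genes tested. Both ribosome biogenesis sets sit lowest on the saline array of animals 5-8, at -0.14 and -0.12, against -0.051 for all genes.

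The wider pathway was read from a second list of 135 ribosome biogenesis genes, of which 130 were measured: subunits and factors of polymerase I, particle assembly factors, further processing factors, and the nucleases that trim the precursor. Both pools read higher for 52 of 130 (40%, against 29% of all genes) and lower for 17 (13.1%, against 24%), with a median difference of 0.094. None of them passed the threshold (limma, smallest adjusted p = 0.822), and 7 had an unadjusted p under 0.05, 6 higher (4.62%, against 3.07% of all genes) and 1 lower (0.769%, against 2.72%). Gtpbp4, a GTPase of large subunit assembly, read 4.50 and 4.71 against 4.03 and 3.71, a difference of 0.74 ± 0.19. Ltv1, a late factor of the small subunit, read 4.64 and 4.85 against 4.33 and 3.94, a difference of 0.61 ± 0.20. In both genes the ProMyo arrays stood apart from the saline arrays. Naf1, which assembles box H/ACA particles before Gar1 takes its place, read 5.67 and 5.48 against 5.06 and 4.91, with nearly equal differences of 0.61 and 0.58 in the pools. Ruvbl1, an ATPase that helps assemble box C/D particles, read 4.23 and 3.97 against 3.70 and 3.53, a difference of 0.48 ± 0.18. Its partner Ruvbl2, looked up after its value was seen, read lower in both pools, with -0.28 and -0.33. Of the 8 measured particle assembly factors, 3 read higher in both pools and 2 lower. Their median difference was -0.019. Among the nuclease genes, Rpp14 and Pop1, proteins of the RNase P and RNase MRP family, had differences of 0.49 ± 0.16 and 0.74 ± 0.27. Utp18, of the small subunit processome, and Ddx27, a helicase of the large subunit, had 0.79 ± 0.33 and 0.41 ± 0.18, and Taf1c, of the polymerase I selectivity factor, 0.30 ± 0.17. The lowest of the list was Ttf1, the termination factor of polymerase I, at 0.68 and 0.41 in ProMyo muscle against 1.18 on each saline array, so that its ProMyo values lay within the background controls (1 of them, that of animals 5-8, by its own array's highest control). None of these 10 genes named by p passed over all genes (limma, adjusted p between 0.822 and 0.84).

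Whole muscle holds several cell types, and fewer cells of a type cannot be told apart from less RNA per cell. Of the markers of skeletal muscle fibres 10 of 10 read higher after ProMyo in both pools, with a median of 0.14. Over all genes tested 29% read higher in both pools and 24% lower, with a median of 0.013. The median of the members was 0.13, and so was that of 7 endothelial markers, of which 4 read higher in both pools and 0 lower, with summed levels of 7.54 and 7.48 after ProMyo, against 7.49 and 7.28 after saline. The summed level of the fibre markers (log2 of the summed linear values) was 15.2 and 15.1 on the ProMyo arrays, and 15.1 and 15.0 on the saline arrays. Of the markers of dividing cells 4 of 6 read higher in both pools and 2 lower, with summed levels of 4.07 and 4.10 after ProMyo, against 3.67 and 3.55 after saline. Mki67 and Top2a, both at least 1.5-fold higher in both pools, led this list, with both saline values of Mki67 and the saline value of Top2a in animals 5-8 within the background controls, while Birc5 and Aurkb stayed within the background controls on all arrays. Satellite cell markers had no shared direction in 7 of 7, with Pax7 between 1.71 and 2.03. Fibroblast markers read lower in both pools for 6 of 8 and higher in both for 1 (Lum). Their summed levels were 9.80 to 9.84 after ProMyo, against 10.0 to 10.2 after saline. Macrophage markers read lower in both pools for 4 of 9 and higher in both for 1 (Cd163). Their summed levels were 7.90 to 8.05 after ProMyo, against 8.10 to 8.33 after saline. The 3 measured adipocyte markers had a median of -0.46 and the 4 Schwann cell markers one of -0.14, each with 1 marker lower in both pools and 0 higher. Of 7 measured T and B cell markers, 2 read higher in both pools (Cd3e and Cd8a) and 1 read lower (Ms4a1). The saline values of Cd3e and Cd8a lay within the background controls, and 3 of the 7 markers, with Ms4a1 among them, did so on all arrays. The signal of the 3' over the 5' probe sets, which follows RNA integrity, was 0.58 and 0.74 log2 units for Gapdh on the ProMyo arrays, against 0.90 and 0.81 on the saline arrays. The part of cell makeup and of RNA integrity in the members' differences was not tested.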

How the data were processed

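Each of 4 Affymetrix arrays (2 per group) held mixed RNA of 4 animals. The deposited log2 values per probe set came from RMA run by the authors in Affymetrix Expression Console, as the submitters' processing notes list; their versions and log base are not stated there. Values ran from -0.45 to 13.2; as natural logarithms they would exceed a scanner's range, so they were read as log2. Arrays have no read depth.

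Of 45101 probe sets, 34958 had 1 symbol in GEO's platform annotation, 932 several and 9211 were not listed; 34754 matched RefSeq by gene identifier and 0 symbols changed. Probe sets averaging below 0.45 (percentile 25 of all) were dropped. ProMyo and saline were compared with limma 3.58.1 in R 4.3.3 (lmFit, eBayes) on each gene's brightest probe set, adjusting p over 15103 genes, after the script was tested on simulated data. P-values measure the spread between pools, not between single animals.

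The members, lists and tests were chosen with earlier results of these data known. Full values go to the 3 members per role with the smallest p and to members at least 1.5-fold apart in both pools; 2 genes per list of the wider pathway are named by p. Mphosph10, Ruvbl2 and members with only pool values fall outside this rule.

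ProMyo and saline went into opposite legs, per the labels' protocols, and animal numbers 1-4 and 5-8 were read as naming the same mice in both groups, so the pools were treated as paired. The deviations of like-numbered pools correlated at r = 0.16 (15103 genes). The pairing was left out of the main comparison. Alternatives were the pool as a block, other filters, a trended variance, quantile normalization, median centring, other probe sets and leaving out each array.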

Additional observations from a re-analysis of the deposited data

How the results depend on the processing

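No member passed an adjusted p of 0.05 (limma) in any setting fitted with 1 value per gene. With the pool of animals as a replicate block (paired legs), limma called 0 genes (1039 at an unadjusted p under 0.05) and no member changed its call at the adjusted threshold; Nop58 had an adjusted p of 0.681 there, and the unadjusted p of Imp4 went from 0.0367 to 0.0548. Testing every probe set in place of genes called 1 probe set, and leaving out single arrays called 0 genes (353 to 1599 at an unadjusted p under 0.05). The median over members, 0.13, ran from 0.05 to 0.18 when single arrays were left out, and was 0.073 after quantile normalization and 0.072 with the mean of probe sets. Members whose ProMyo arrays stood above (11) or below (2) the saline arrays were counted again, in settings added after seeing the data. Without the saline array of animals 5-8 the counts were 13 and 8, against 29.5% and 36.9% of all genes. Without that of animals 1-4 they were 22 and 2, against 42.7% and 29.7%. After quantile normalization 8 stood above and 4 below, against 16.1% and 21.0% of all genes. At the next brightest probe set the difference turned for Polr1c (-0.23), Ubtf (0.15), Nhp2 (0.065), Ncl (-0.11), Wdr75 (0.17), Heatr1 (-0.41), Wdr12 (-0.019), Rrs1 (-0.30). With the mean of probe sets it turned for Dkc1 (-0.025), Ncl (-0.019), Wdr75 (0.068), Heatr1 (-0.033), Rrs1 (-0.071). After quantile normalization it turned for Mybbp1a (-0.041), Npm1 (-0.026), Gnl3 (-0.052), Rrp9 (-0.014), Nop14 (-0.070), Wdr43 (-0.062). Without single arrays the difference lay on both sides of 0 for Gnl3 (-0.15 to 0.16), Mybbp1a (-0.067 to 0.079), Myc (-0.022 to 0.17), Nhp2 (-0.27 to 0.083), Nip7 (-0.025 to 0.33), Nolc1 (-0.077 to 0.29), Nop14 (-0.023 to 0.037), Nop16 (-0.021 to 0.21), Nop2 (-0.23 to 0.13), Npm1 (-0.12 to 0.17), Polr1a (-0.13 to 0.63), Rrp12 (-0.61 to 0.39), Rrp9 (-0.28 to 0.34), Rrs1 (-0.016 to 0.33), Taf1d (-0.056 to 0.73), Utp20 (-0.33 to 0.10), Wdr43 (-0.064 to 0.071). The cause of these turns was not tested. Centring arrays on their median, a trended variance and the replicate block turned no member. Signal over background limits Myc, with 3 of 4 values below the highest control of any array and 1 of 4 below that of its own array.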
